A study of Mus musculus with 6 samples.

Results

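The genes described here are 43 genes of the cell cycle, chosen by symbol, of which 42 were measured among the 12968 genes tested in mouse lung. Mki67, the Ki-67 proliferation marker, had no probe that could be matched to it. All 42 measured members passed the filter on dim probes (2 or more of the 6 arrays had to exceed background clearly), and 37 were above background on all 6 arrays. The study profiled total RNA from lungs of C57BL/6 mice on single-colour (Cy3) Agilent arrays, 2 for each genotype: hCD2-T-bet tg/tg, hCD2-T-bet tg/wt and WT, the genotype without the transgene. T-bet is a transcription factor of the T helper 1 programme and the product of Tbx21, and the series concerns alveolar proteinosis in mice that overexpress it in T cells. The human CD2 control region drives transgenes in T lineage cells. The labels give no further allele or treatment and no age, and they do not say whether replicate arrays came from separate animals.

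A dividing cell passes from growth to DNA synthesis and then to mitosis. D-type and E-type cyclins with their kinases release E2F factors from the retinoblastoma proteins, E2F factors switch on the genes of DNA replication, and B-type cyclins with Cdk1 drive mitosis until the anaphase-promoting complex destroys them. In resting lung few cells divide, and these transcripts are known as markers of dividing cells. In bulk lung RNA a larger number of cells of a type and more RNA per cell cannot be told apart.

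Levels are log2 of the processed signal minus the array's 75th percentile of it, so a level of 0 is the 75th percentile, and levels of different genes cannot be set against each other. The 75th percentile lay between 794 and 1204 intensity units, 62.0% to 66.8% of probes were well above background, and replicate arrays correlated at 0.996 to 0.997 across genes, which are not independent replicates. The tg/tg and WT arrays lay on slide 1 and the tg/wt arrays on slide 2, so slide and genotype cannot be told apart in either comparison with tg/wt. Tbx21, the label check, stood at 3.25 and 3.26 in tg/tg, at 1.30 and 1.34 in tg/wt, and at -0.70 and -0.71 in WT. All 3 comparisons reuse the same arrays. A gene is called where the limma adjusted p (Benjamini-Hochberg over all genes) is under 0.05.

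Cell cycle genes were broadly higher in tg/tg lungs, set against WT lungs. Of the 42 members 34 were called higher and 3 lower, against 33.8% of all genes called higher and 40.8% called lower. At a difference of at least 2-fold, 26 members were higher and 0 lower, against 10.9% and 12.3% of all genes. Both higher counts include Cenpe, which was above background on the tg/tg arrays only and passed the filter through them. The count of members at least 2-fold lower was also 0 at an unadjusted p under 0.05. The tg/tg and WT arrays did not overlap for any of the 42 members, and 87.9% of all genes did not overlap either. The median log2 difference of the members was 1.43, beside -0.05 over all genes. In tg/wt against WT, 27 members were called higher and 1 lower, against 13.4% and 14.6% of all genes, with a median of 0.49 beside -0.005 over all genes. With 1 array left out at a time, 21 to 28 members and 746 to 1648 genes in all were called higher in tg/wt, the lower counts of genes coming without a tg/wt or WT array. Between tg/wt and WT 40 members did not overlap, against 72.4% of all genes. In that comparison the fitted difference of 1 member, Cenpe, passed the 2-fold rule, against 1.1% of all genes, but Cenpe was below background on all tg/wt and WT arrays, so it has no fold there. A normexp background correction with outlying local backgrounds limited lowered the median difference of the members from WT to 1.06 in tg/tg and to 0.32 in tg/wt. Between tg/tg and tg/wt, 33 members were called higher and 3 lower, against 34% and 40.2% of all genes. In that comparison 21 were at least 2-fold higher, against 9.85% of all genes. Both higher counts again include Cenpe. The tg/tg and tg/wt arrays did not overlap for 40 members, against 87.5% of all genes.

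**Figure D1:**
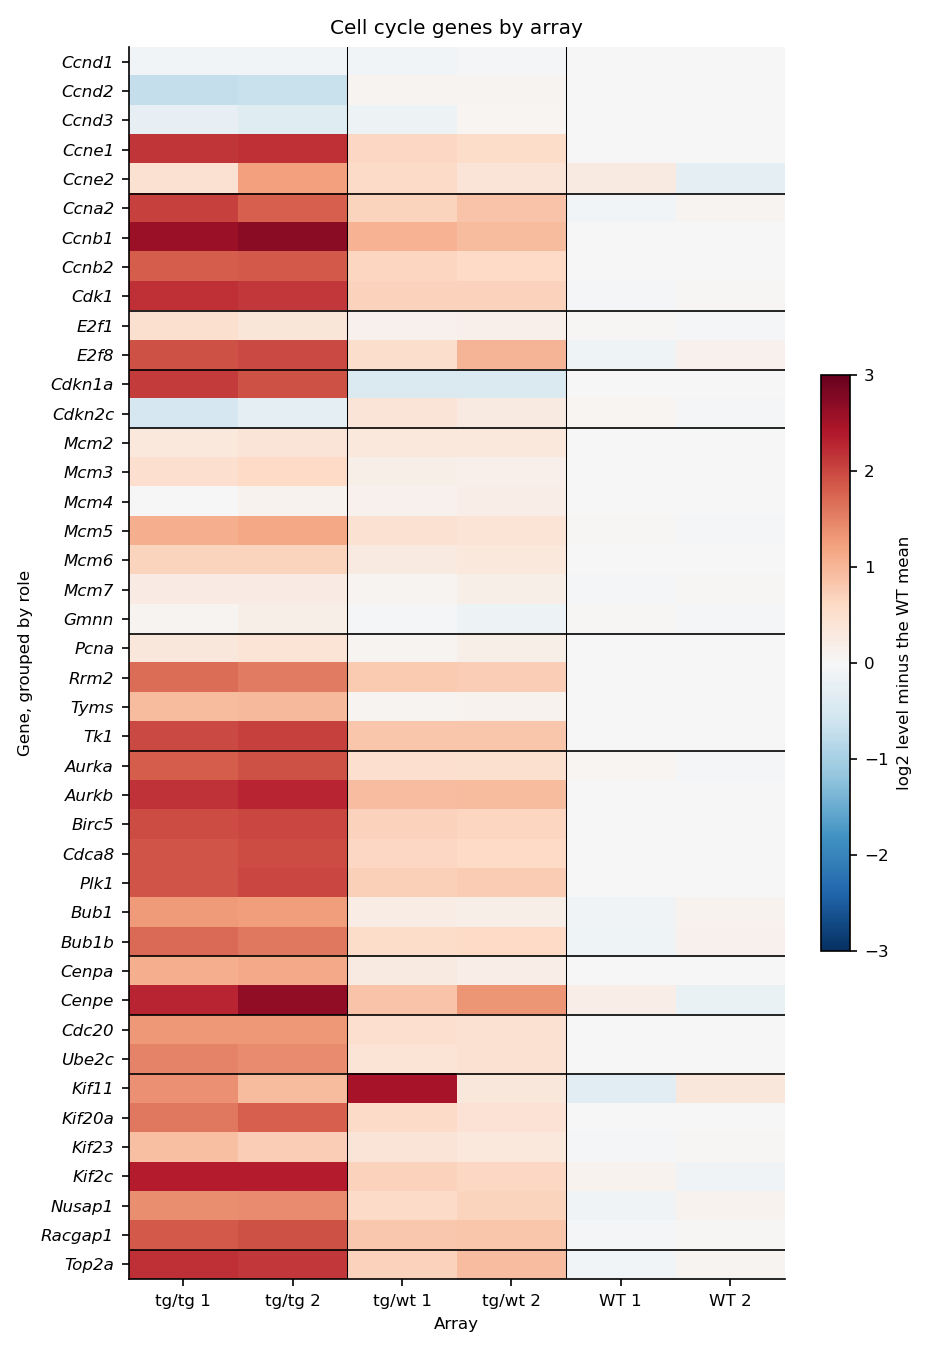
Log2 level of each of the 42 measured members on each array (columns) minus the mean of the WT arrays, with genes grouped by role and lines between roles. Most rows are darkest red on the tg/tg arrays and paler on the tg/wt arrays, while Ccnd2, Ccnd3 and Cdkn2c are blue on the tg/tg arrays, and Kif11 is high on tg/wt 1 alone of the tg/wt arrays.

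Among the B-type and A-type cyclins and Cdk1, the kinase they activate, all 4 members rose at least 2-fold in tg/tg. The share of all genes that did so was 10.9%. Ccnb1, the cyclin that with Cdk1 starts mitosis, had levels of -1.64 and -1.51 in tg/tg, -3.17 and -3.28 in tg/wt, and -4.23 and -4.21 in WT. The genotypes did not overlap, and Ccnb1 showed the largest difference of all members in tg/tg against WT, at 6.27-fold (log2 difference 2.65, SE 0.063, limma adjusted p = 4.8e-06). In tg/wt its difference from WT was 0.99 (adjusted p = 0.0013). Cdk1 stood at -0.78 and -0.86 in tg/tg, -2.30 and -2.29 in tg/wt, and -3.03 and -2.94 in WT, which is 4.48-fold above WT in tg/tg. Ccna2, whose cyclin acts in DNA synthesis and at mitotic entry, was 3.78-fold higher in tg/tg, and Ccnb2, a second B-type cyclin, 3.53-fold higher. All 4 were also called higher in tg/wt, against 13.4% of all genes, by log2 differences of 0.62 (Ccnb2) to 0.99 (Ccnb1). The Ccna2 call in tg/wt ended without tg/wt 2 (limma adjusted p = 0.06861) and without WT 1 (0.06523).

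All 7 members for mitotic kinases, the spindle checkpoint and the chromosomal passenger complex were at least 2-fold higher in tg/tg. Their log2 differences ran from 1.27 (Bub1) to 2.23 (Aurkb). The share of all genes at least 2-fold higher in tg/tg was 10.9%, and that called higher in tg/wt was 13.4%. Aurkb encodes the kinase of the passenger complex, which corrects faulty spindle attachments. Its levels were -2.09 and -1.98 in tg/tg, -3.35 and -3.32 in tg/wt, and -4.27 and -4.26 in WT. The other passenger genes moved by similar amounts, Birc5 (survivin) by 1.98 and Cdca8 (borealin) by 1.92. Plk1, a kinase of mitotic entry and spindle assembly, was higher by 1.94 in tg/tg, and Aurka, a centrosome kinase, by 1.87. Bub1 and Bub1b, which hold back anaphase until chromosomes are attached, were higher by 1.27 and 1.63. In tg/wt 6 of the 7 were called higher, and Bub1 was not (0.20, adjusted p = 0.118, or 0.04168 without WT 2). Bub1b lost its call in tg/wt without either tg/wt array (adjusted p 0.06979 and 0.09004).

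Genes that act later in mitosis rose as well. Cdc20, which activates the anaphase-promoting complex, had levels of 2.07 and 2.08 in tg/tg, 1.27 and 1.23 in tg/wt, and 0.76 and 0.77 in WT, a 2.48-fold difference between tg/tg and WT. Ube2c, the ubiquitin-conjugating enzyme of that complex, was 2.74-fold higher in tg/tg. Top2a, the topoisomerase that untangles sister chromosomes, stood at -1.96 and -2.04 in tg/tg, -3.48 and -3.23 in tg/wt, and -4.25 and -4.07 in WT, which is 4.46-fold above WT in tg/tg. Its tg/wt difference of 0.80 came to 0.31 under the limited normexp correction and was not called there (limma adjusted p = 0.06261).

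Of the 6 members for spindle motors and cytokinesis, 5 were called higher in tg/tg, and the same 5 in tg/wt. The shares of all genes called higher were 33.8% in tg/tg and 13.4% in tg/wt. Kif2c, a kinesin that shortens microtubules at kinetochores, differed most, with -3.03 and -3.02 in tg/tg, -4.68 and -4.75 in tg/wt, and -5.27 and -5.47 in WT (5.10-fold, tg/tg against WT), where it was above background on 1 array. Racgap1, part of the central spindle, was higher by 1.88 on the log2 scale in tg/tg, and Kif20a, a kinesin of cytokinesis, by 1.69. Nusap1, a spindle protein, was higher by 1.41 in tg/tg, and Kif23, the motor that partners Racgap1, by 0.81. A second Kif23 probe was higher by 0.64 in tg/tg, but was not called in tg/wt (0.12, limma adjusted p over all probes = 0.48). In tg/wt the calls of Kif20a (limma adjusted p 0.0526 to 0.0817) and Kif23 (0.07657 to 0.1056) ended when any 1 tg/wt or WT array was left out. The tg/wt difference of Kif2c, 0.66, came to 0.07 and was not called (adjusted p = 0.6112) under the limited normexp correction. Kif11, the kinesin that separates spindle poles, was the exception. It stood at -4.52 and -4.95 in tg/tg, at -3.43 and -5.54 in tg/wt, and at -6.24 and -5.54 in WT, where it was not above background on either array. The tg/wt arrays lay far apart, which set a wide error, and Kif11 was not called in tg/tg against WT (adjusted p = 0.21). With WT raised to the lowest signal well above background, tg/tg was 1.75-fold higher, a value that takes no account of that error. In a fit of the tg/tg and WT arrays alone Kif11 was called (limma adjusted p = 0.0319). A second Kif11 probe was not above background on any array and was not tested.

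Both centromere and kinetochore members rose at least 2-fold in tg/tg, against 10.9% of all genes. Cenpa, the histone that marks centromeres, was higher by 1.11 in tg/tg and by 0.24 in tg/wt, where the limma call ended without tg/wt 1, WT 1 or WT 2 (adjusted p 0.07217 to 0.1004). Cenpe, a kinetochore motor, had levels of -4.41 and -4.03 in tg/tg, -5.85 and -5.38 in tg/wt, and -6.51 and -6.89 in WT. Cenpe was above background on the tg/tg arrays only, so it passed the filter through them and its adjusted p there is not given. The bound is at least 2.49-fold above WT in tg/tg. That bound divides the mean tg/tg signal by the higher, per WT array, of the lowest signal well above background and its own. The tg/wt call of Cenpe compares arrays that were all below background and gives no fold. That call ended without any 1 of the tg/wt or WT arrays (adjusted p 0.05045 to 0.1156).

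**Figure D2:**
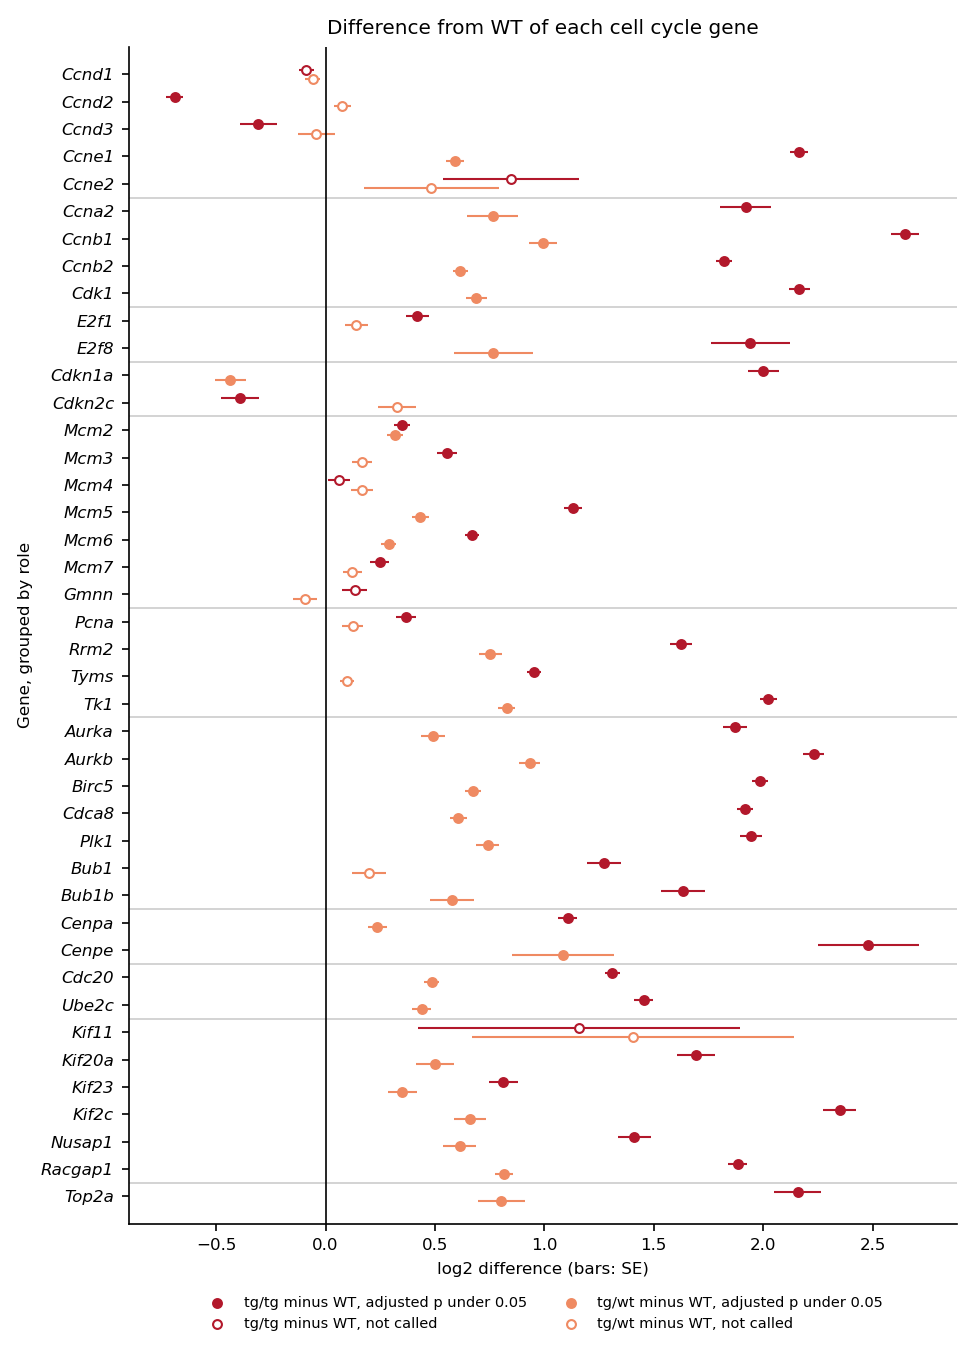
Log2 difference from WT (horizontal axis) of each of the 42 measured members, in tg/tg (dark) and tg/wt (light), with bars for the SE of the fit, filled points for an adjusted p under 0.05 and grey lines between roles. The mitotic genes lie between 0.81 and 2.65 in tg/tg and mostly between 0.2 and 1.1 in tg/wt, whereas the licensing genes lie below 1.2 in both.

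The promoters of Cdk1, Plk1, Top2a and Ccnb1, as mitotic members, and of Mcm5 and Mcm6, as replication members, are shown because sets of genes that act at one cell cycle stage are known to share promoter elements. Each line gives the 250 bases before and 50 after the RefSeq start site on GRCm38.p6, from 5′ to 3′ along the gene, with matches in capitals. The letters searched on both strands were TTTGAA and TTCGAA for the cell cycle homology region (CHR), TTTCCCGC, TTTCGCGC, TTTGCCGC and TTTGGCGC for E2F, and CCAAT. The second CHR form reads the same on both strands and was counted once.
Cdk1 (chr10:69352863-69353162, minus strand): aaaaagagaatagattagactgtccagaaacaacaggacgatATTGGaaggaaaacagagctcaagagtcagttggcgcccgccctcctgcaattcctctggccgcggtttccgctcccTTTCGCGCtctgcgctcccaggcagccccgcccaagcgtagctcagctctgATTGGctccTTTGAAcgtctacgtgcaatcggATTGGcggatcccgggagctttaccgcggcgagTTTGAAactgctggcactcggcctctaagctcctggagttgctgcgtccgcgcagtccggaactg
Plk1 (chr7:122159185-122159484, plus strand): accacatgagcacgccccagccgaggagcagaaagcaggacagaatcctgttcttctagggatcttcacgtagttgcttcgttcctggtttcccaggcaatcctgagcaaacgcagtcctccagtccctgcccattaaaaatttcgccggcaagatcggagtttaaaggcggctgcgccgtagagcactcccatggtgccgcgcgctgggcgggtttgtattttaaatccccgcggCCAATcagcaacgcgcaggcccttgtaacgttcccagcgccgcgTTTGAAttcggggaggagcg
Top2a (chr11:99024140-99024439, minus strand): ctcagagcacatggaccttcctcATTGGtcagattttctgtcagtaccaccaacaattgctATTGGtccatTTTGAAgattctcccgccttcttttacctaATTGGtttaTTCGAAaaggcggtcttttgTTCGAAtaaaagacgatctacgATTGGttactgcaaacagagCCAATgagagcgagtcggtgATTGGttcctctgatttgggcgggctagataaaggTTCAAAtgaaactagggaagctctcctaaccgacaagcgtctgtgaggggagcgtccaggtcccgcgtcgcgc
Ccnb1 (chr13:100786437-100786736, minus strand): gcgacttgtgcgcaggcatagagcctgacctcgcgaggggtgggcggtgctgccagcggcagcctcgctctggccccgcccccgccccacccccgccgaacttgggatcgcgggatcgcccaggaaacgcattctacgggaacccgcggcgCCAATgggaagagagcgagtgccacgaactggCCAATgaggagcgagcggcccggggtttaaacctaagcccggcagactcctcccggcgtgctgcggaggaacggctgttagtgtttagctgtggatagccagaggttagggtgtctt
Mcm5 (chr8:75109259-75109558, plus strand): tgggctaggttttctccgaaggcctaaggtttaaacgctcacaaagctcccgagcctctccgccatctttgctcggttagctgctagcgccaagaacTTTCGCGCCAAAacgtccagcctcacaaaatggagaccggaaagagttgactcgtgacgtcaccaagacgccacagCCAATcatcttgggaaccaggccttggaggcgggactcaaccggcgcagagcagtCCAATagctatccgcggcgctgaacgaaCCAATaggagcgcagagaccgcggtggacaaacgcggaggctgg
Mcm6 (chr1:128359656-128359955, minus strand): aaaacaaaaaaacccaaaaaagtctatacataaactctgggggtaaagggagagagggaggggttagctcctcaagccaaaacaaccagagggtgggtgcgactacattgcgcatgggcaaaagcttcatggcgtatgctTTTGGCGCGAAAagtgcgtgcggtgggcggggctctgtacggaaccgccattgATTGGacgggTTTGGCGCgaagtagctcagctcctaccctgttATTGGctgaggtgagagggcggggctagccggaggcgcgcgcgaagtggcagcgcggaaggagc
Cdk1 held 2 CHR matches, 1 E2F match and 3 CCAAT matches, and Top2a held 4 CHR and 6 CCAAT matches. Plk1 held 1 CHR and 1 CCAAT match, and Ccnb1, the member with the largest difference, held 2 CCAAT matches and neither of the other motifs. Mcm5 held 2 E2F and 3 CCAAT matches, and Mcm6 held 3 E2F and 2 CCAAT matches. In Mcm5 both E2F matches overlap on opposite strands, and in Mcm6 2 of the 3 do, so that each pair appears as 1 run of capitals. Over the 35 members with a promoter window, the CHR letters were present in 54.3%, against 21.7% of all 27025 genes with a window and 17% of the 10343 such genes that were tested. Among the 20 members of mitosis (Mki67 included) they were present in 80.0%, and among the 11 members of replication and E2F in 27.3%. The E2F letters were present in 1 of the 20 mitosis members (5.0%) and in 4 of the 11 replication members (36.4%), against 2.6% of all genes and 4.19% of the genes tested. CCAAT was present in 85.0% of the mitosis members, 72.7% of the replication members, 41.1% of all genes and 42.8% of the genes tested. These are matches of letters in a window, not measured binding. The table used held no window for 8 members (Ccnd1, Ccnd2, Ccne2, Ccna2, Aurkb, Kif20a, Mcm4 and Gmnn).

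Replication licensing genes had smaller differences, with a median of 0.35 on the log2 scale in tg/tg against WT beside 1.92 for the mitotic kinase and checkpoint members, a contrast that was not tested. Mcm2 to Mcm7 encode the subunits of the helicase that opens DNA at replication origins, and Gmnn encodes geminin, which blocks relicensing. Of these 7 members, 5 were called higher in tg/tg, 1 of them at least 2-fold, against 33.8% and 10.9% of all genes. The 2-fold count is near that share. Mcm5 had levels of 1.01 and 1.07 in tg/tg, 0.36 and 0.33 in tg/wt, and -0.06 and -0.11 in WT, a 2.19-fold difference between tg/tg and WT. Mcm6 was higher by 0.67 in tg/tg, Mcm3 by 0.56 and Mcm7 by 0.25. Mcm2 stood at -0.46 and -0.41 in tg/tg, -0.46 and -0.48 in tg/wt, and -0.80 and -0.77 in WT. Its differences from WT were 0.35 in tg/tg and 0.32 in tg/wt, both called, and tg/tg and tg/wt were not called apart (0.03, limma adjusted p = 0.44). Mcm4 (0.06, adjusted p = 0.33) and Gmnn (0.13, adjusted p = 0.085) were not called in tg/tg against WT. An intensity trend in the variance called Gmnn higher there (limma adjusted p = 0.038). In tg/wt Mcm2, Mcm5 and Mcm6 were called higher, against 13.4% of all genes. Mcm3 was not called there (0.17, limma adjusted p = 0.056), but its second probe was (0.30, adjusted p over all probes = 0.046). Alternatives that called Mcm3 in tg/wt included the mean of its probes (adjusted p = 0.022) and a fit of those arrays alone (0.039). Mcm4 was not called in tg/wt (0.17, limma adjusted p = 0.068). Quantile normalization (adjusted p = 0.0245) and an intensity trend in the variance (0.0242) called it.

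The genes that supply nucleotides differed among themselves. Tk1, thymidine kinase, had levels of 0.38 and 0.45 in tg/tg, -0.78 on both arrays in tg/wt, and -1.62 and -1.60 in WT, which puts tg/tg at 4.06-fold and tg/wt at 1.77-fold the WT level. Rrm2, the small subunit of ribonucleotide reductase, was 3.08-fold higher in tg/tg and 1.69-fold higher in tg/wt. Tyms, thymidylate synthase, was 1.93-fold higher in tg/tg and was not called in tg/wt (log2 difference 0.10, limma adjusted p = 0.084). Pcna, the sliding clamp of DNA polymerase, was 1.29-fold higher in tg/tg and was not called in tg/wt either (0.12, adjusted p = 0.11). Quantile normalization called both higher in tg/wt (limma adjusted p 0.042 for Tyms and 0.034 for Pcna).

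The cyclins that act before DNA synthesis did not move together. Ccne1, a cyclin of the entry into DNA synthesis, had levels of 0.92 and 0.98 in tg/tg, -0.59 and -0.65 in tg/wt, and -1.20 and -1.23 in WT, a 4.48-fold difference between tg/tg and WT. A second Ccne1 probe, dimmer than the first, lay at -3.91 and -4.00 in tg/tg, -4.90 and -5.53 in tg/wt, and -1.67 and -5.71 in WT. Because WT 1 stood far above WT 2 on it, its difference was not called (log2 difference -0.26), and the mean of both probes is not called either (adjusted p = 0.25). Ccne2, the related E-type cyclin, was not called (0.85, adjusted p = 0.057), and was above background on 1 of the WT arrays. Its second probe was above background on the tg/tg arrays only and passed the filter through them, so its difference from WT is not given. The gene was called without tg/tg 1 (adjusted p = 0.01774) and without WT 1 (0.04917), and under other alternatives.

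The D-type cyclins link growth signals to the cycle. Ccnd2 had levels of 3.19 and 3.25 in tg/tg, 3.98 and 3.99 in tg/wt, and 3.93 and 3.89 in WT. It fell in tg/tg, by 0.69 on the log2 scale against WT and by 0.77 against tg/wt, and tg/wt and WT were not called apart (0.08, adjusted p = 0.20). Ccnd3 fell by 0.31 in tg/tg (limma adjusted p = 0.023), a call that ended without tg/tg 2 (adjusted p = 0.1011), WT 1 (0.09123) or WT 2 (0.06727). Ccnd1 lay between 3.06 and 3.16 on all 6 arrays and was not called in any comparison (tg/tg against WT -0.09, adjusted p = 0.069), while 2 alternatives called it lower in tg/tg, quantile normalization (adjusted p = 0.04856) and an intensity trend in the variance (0.04127).

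Both CDK inhibitors among the members departed from the order of the genotypes seen in the mitotic genes. Cdkn1a, the p21 inhibitor that p53 induces, had levels of 2.46 and 2.27 in tg/tg, -0.06 and -0.08 in tg/wt, and 0.36 on both arrays in WT. In tg/tg it stood 4.0-fold above WT (SE 0.070 on the log2 scale, limma adjusted p = 1.4e-05) and 5.41-fold above tg/wt. In tg/wt it lay below WT by a log2 difference of -0.43 (adjusted p = 0.015), the 1 member called lower there, but that call ended when any 1 tg/wt or WT array was left out (adjusted p 0.06357 to 0.07614). Cdkn2c, the p18 inhibitor of the D-cyclin kinases, had levels of 1.20 and 1.41 in tg/tg, 2.08 and 1.97 in tg/wt, and 1.75 and 1.65 in WT. It fell by 0.39 in tg/tg against WT (adjusted p = 0.012, or 0.057 without WT 1) and by 0.72 against tg/wt. It was lowest in tg/tg and highest in tg/wt, with no overlap between genotypes, and was not called in tg/wt against WT (0.33, adjusted p = 0.052), though it was called there under 8 alternatives (adjusted p 0.01262 to 0.04869), among them the fit of those arrays alone (0.03479).

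**Figure D3:**
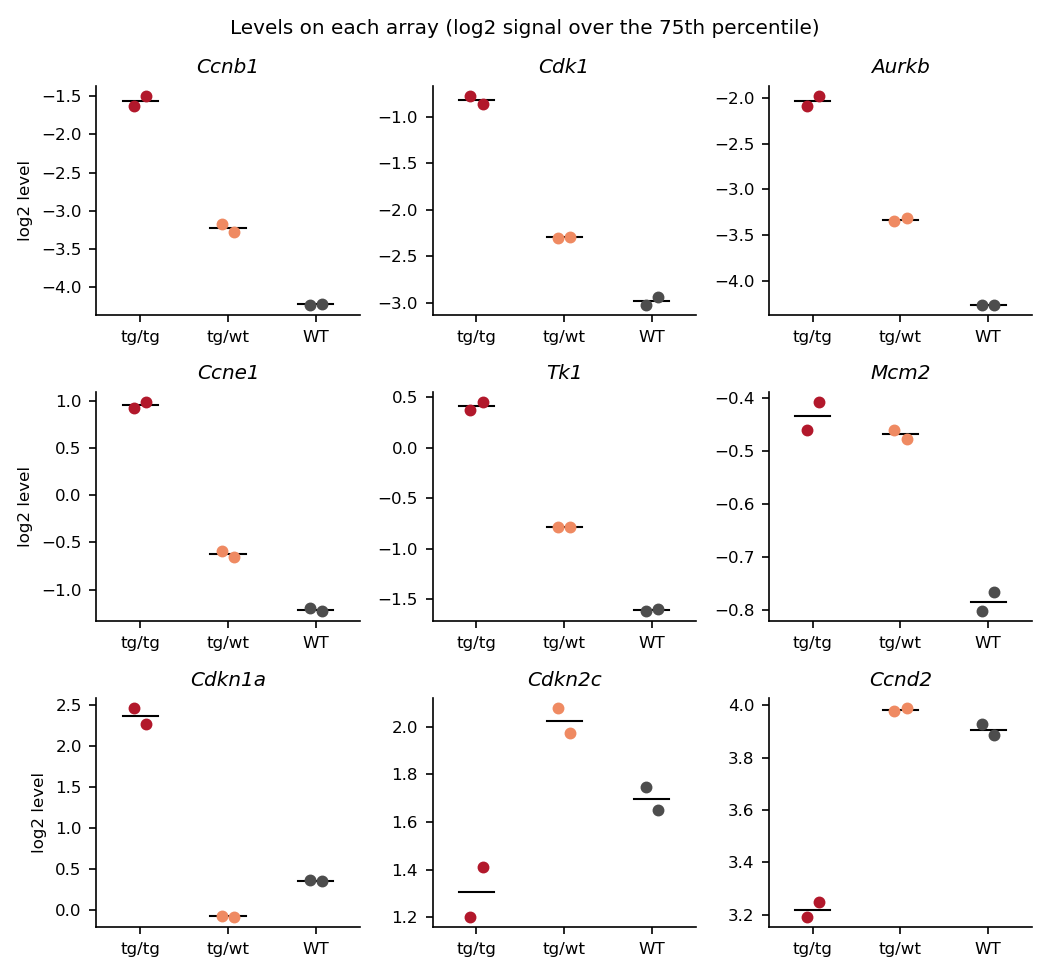
Log2 level (signal over the array's 75th percentile) of 9 members on each array, with points for arrays and lines for the mean of each genotype, on an axis of its own for each gene. Ccnb1, Cdk1, Aurkb, Ccne1 and Tk1 step down in the order tg/tg, tg/wt and WT, Mcm2 is alike in tg/tg and tg/wt, Cdkn1a is high in tg/tg alone, and Cdkn2c and Ccnd2 are lowest in tg/tg.

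Of the E2F factors, E2f8, a repressor that is itself induced in DNA synthesis, was 3.84-fold above WT in tg/tg, with levels of -3.62 and -3.56 in tg/tg, -5.01 and -4.52 in tg/wt, and -5.66 and -5.41 in WT, above background on 1 of the WT arrays. E2f1, an activator, was higher by 0.42 in tg/tg, a 1.34-fold difference, and was not called in tg/wt (0.14, adjusted p = 0.11). A second E2f1 probe was not called in tg/tg (0.17, limma adjusted p over all probes = 0.082). In tg/wt the E2f8 call (0.77, adjusted p = 0.038) ended under several alternatives, with 0.069 in a fit of the tg/wt and WT arrays alone, and without any single array other than tg/wt 1 (0.06938 to 0.1517).

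Other genes of the pathway were listed by role. Of all genes, 33.8% were called higher and 40.8% lower in tg/tg, and 13.4% higher and 14.6% lower in tg/wt. Of 52 measured genes among 60 other mitosis genes, 47 were called higher and 2 lower in tg/tg, with a median log2 difference of 1.35. In tg/wt 39 were called higher and 0 lower, with a median of 0.48. Kif18b, a kinesin, was at least 2.37-fold above WT in tg/tg, and Depdc1a, a gene expressed in dividing cells, at least 1.77-fold. Neither Kif18b nor Depdc1a was above background on the WT arrays. Of the 52 genes, 4 were below background on all WT arrays and 3 on all tg/wt arrays. Those below background in both groups passed the filter only through the tg/tg arrays, so their higher call there was favoured by the filter. Cdca3, which promotes mitotic entry, had levels of 0.68 and 0.80 in tg/tg, -0.72 and -0.84 in tg/wt, and -1.45 and -1.47 in WT. The 2 genes that fell were Pttg1 (securin, which restrains the separase), by 0.96, and Stmn1 (stathmin, which destabilises microtubules), by 0.87. Of 31 measured genes among 36 other replication genes, 25 were called higher and 2 lower in tg/tg, with a smaller median of 0.61. In tg/wt 16 were called higher and 0 lower, with a median of 0.23. Dbf4, which activates the kinase that fires origins, was higher by 1.44 in tg/tg. Clspn (claspin, of the replication checkpoint) and Ticrr (an origin firing factor) were at least 1.40-fold and 1.29-fold higher in tg/tg. Neither was above background on the WT arrays. Of the 31 genes, 2 were below background on all WT arrays and 2 on all tg/wt arrays. Any gene below background in both groups passed the filter only through tg/tg, where a higher call was then likely. Pold1, a catalytic subunit of DNA polymerase, and Orc6, an origin recognition subunit, fell by 0.17 and 0.13.

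Regulators of G1 and targets of p53 were more mixed. Their counts stand beside 33.8% of all genes called higher and 40.8% lower in tg/tg, and 13.4% and 14.6% in tg/wt. Of 26 other G1 regulators, 17 were called higher and 5 lower in tg/tg, with a median of 0.36, and 6 were called higher and 2 lower in tg/wt. The growth-promoting factor Myc had levels of 0.86 and 1.07 in tg/tg, -0.94 on both arrays in tg/wt, and -1.19 and -1.11 in WT, so that it was 4.32-fold higher in tg/tg and not called in tg/wt (limma adjusted p = 0.12). Its relative Mycn was higher by 1.84 in tg/tg. Cdkn2a encodes an inhibitor of the D-cyclin kinases and an activator of p53. It was above background on the tg/tg arrays but not on the WT arrays, and was at least 2.59-fold above WT in tg/tg. The inhibitor gene Cdkn1c fell by 1.49 in tg/tg, with levels of 1.97 and 1.98 in tg/tg, 3.42 and 3.35 in tg/wt, and 3.48 and 3.46 in WT. The repressor gene E2f6 fell by 0.57, and Fbxw7, whose product marks cyclin E for destruction, fell by 0.48. Of 21 measured p53 targets beside Cdkn1a, 11 were called higher and 5 lower in tg/tg, with a median of 0.15. The targets called higher with the largest differences were Bax, which promotes apoptosis, at 0.84, the kinase gene Plk3 at 0.81 and the growth factor gene Gdf15 at 0.74, while Perp fell by 1.18, Sesn1 by 0.70 and Ei24 by 0.54. In tg/wt 1 of them was called higher and 3 lower, and that lower count is near the share of all genes called lower (14.6%).

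**Figure D4:**
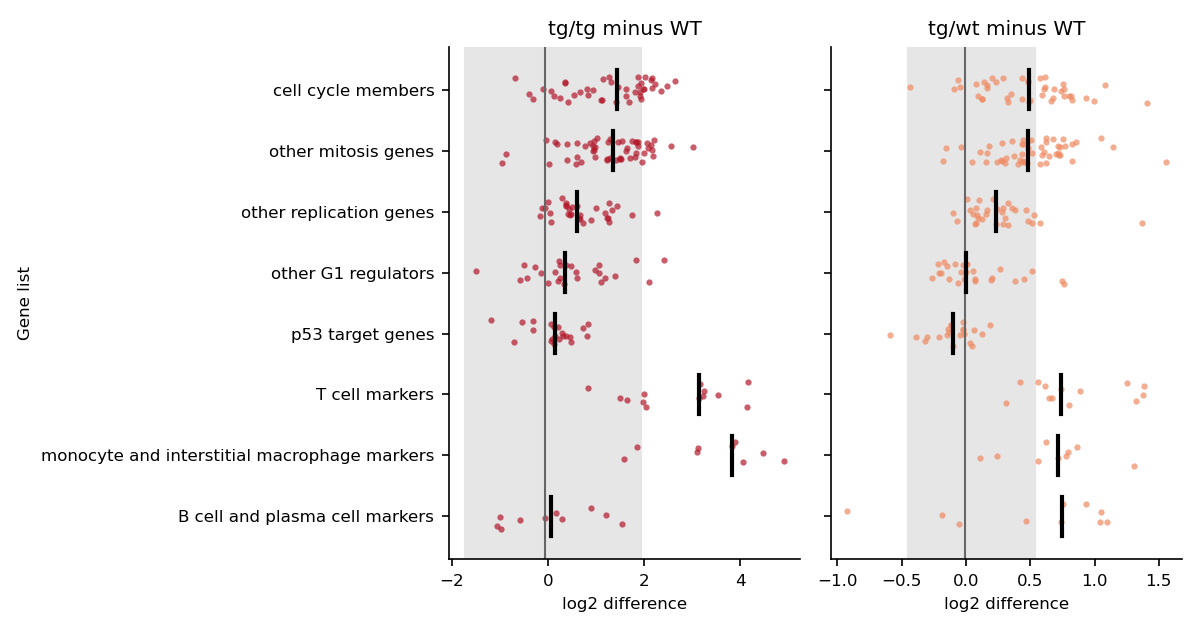
Log2 difference from WT of each gene (points) of the members, of 4 other lists of the pathway and of 3 lists of cell type markers, with a black bar at each list's median, in tg/tg (left) and tg/wt (right, on a narrower scale). The grey band spans the 5th to 95th percentile of all 12968 genes (-1.72 to 1.95 in tg/tg, -0.45 to 0.54 in tg/wt) and the grey line their median, and the medians of the members and of the other mitosis genes lie above those of the other pathway lists.

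Markers of T cells and of monocytes and interstitial macrophages were higher where the cell cycle genes were higher, while other marker lists followed in part or ran the other way. All 13 measured T cell markers were higher in tg/tg, with a median log2 difference of 3.14, and their summed linear level was 48.0 to 48.9 in tg/tg, 10.5 to 10.6 in tg/wt and 5.45 to 5.67 in WT. All 9 measured markers of monocytes and interstitial macrophages were higher in tg/tg, with a median of 3.83, and their sum was 218 to 226 in tg/tg, 25.6 to 26.0 in tg/wt and 15.8 to 16.5 in WT. In tg/wt 11 of the 13 T cell markers and 8 of the 9 monocyte and macrophage markers were called higher. Of the 6 NK cell markers 5 were called higher and 1 lower in tg/tg, and 4 higher and 0 lower in tg/wt. The marker called lower in tg/tg was Ncr1 (log2 difference -0.98). The NK cell markers had a sum of 28.1 to 29.5 in tg/tg, 6.60 to 6.67 in tg/wt and 2.73 to 2.76 in WT. Most of that sum was Nkg7, so it says little of the other NK cell markers. Apart from Nkg7, those called higher in tg/tg differed from WT by at most 1.18 (Klrk1) on the log2 scale. The 8 measured neutrophil markers were all called higher in tg/tg and all called lower in tg/wt. Their log2 differences in tg/tg ran from 0.17 (S100a9) to 3.62 (Mpo), with Ngp at 2.78 and Camp at 2.43. The markers summed to 63.8 to 65.5 in tg/tg, 13.8 to 14.2 in tg/wt and 53.4 to 54.8 in WT, and most of that sum was S100a9. Of the 10 measured B cell and plasma cell markers, 5 were called higher and 4 lower in tg/tg, and 7 higher and 2 lower in tg/wt. All 4 measured markers of immature thymocytes, T cell precursors that divide, were higher in tg/tg (Dntt, Cd1d1, Ccr9 and Themis). The defining genes Rag1, Rag2 and Ptcra did not pass the filter on dim probes, so the presence of such cells is not shown. The sum of the 4 measured markers was 8.22 to 8.40 in tg/tg, 4.14 to 4.22 in tg/wt and 3.35 to 3.40 in WT. Most of that sum was Cd1d1, higher by 1.28 in tg/tg, so it says little of the other markers. The 3 measured erythroid markers were called lower in both tg/tg and tg/wt. Of the 9 measured alveolar macrophage markers 2 were called higher and 7 lower in tg/tg, and 5 higher and 2 lower in tg/wt. All 5 measured airway epithelium markers were lower in tg/tg, and 2 of them in tg/wt. All 8 endothelial markers and all 6 heart muscle markers were lower in tg/tg, and the heart muscle sum was 10.7 to 11.1 in tg/tg, 95.5 to 96.2 in tg/wt and 191 to 194 in WT. The lung identity of the samples showed in the 8 markers of alveolar type 2 cells, all measured, with sums of 1194 to 1348 in tg/tg, 928 to 1091 in tg/wt and 1054 to 1114 in WT. The counts of markers called stand beside 33.8% of all genes higher and 40.8% lower in tg/tg, and 13.4% and 14.6% in tg/wt. The part of any of these cell types in the cell cycle results was not tested.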

How the data were processed

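Total RNA of mouse lung was measured on 6 single-colour arrays. Per the labels' protocols it was extracted with a column kit and labelled with Cy3. Per the file headers, the authors' deposited intensity values came from Agilent Feature Extraction 9.5.3.1, with a grid built on mm7, whereas the submitters' processing notes name version 9.1. The deposited processed intensity is linear and background-subtracted, without any scaling from array to array. A table deposited for the whole series repeats the background-subtracted intensity values and served as an alternative.

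Control spots and outlier spots were left out, and spots of a probe were averaged. Values are log2 of the deposited intensity over the 75th percentile of the intensity on that array. Of 41174 probes 22951 were named by accession through RefSeq, whose assembly, GRCm38.p6, gave names and promoter windows only. Probes well above background on at least 2 arrays entered, each gene was its brightest probe, and 12 probes that lacked a spot on some array were dropped. Genotypes came from the labels. Group means were fitted over all 6 arrays in limma 3.58.1 under R 4.3.3 (lmFit, then eBayes; 3 residual and 1.77 prior degrees of freedom) with Benjamini-Hochberg adjustment over 12968 genes. The number of arrays limits precision, and p-values measure the spread between arrays, which may be technical. The fit was tested on simulated data. Figures used Python and matplotlib.

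Members and lists were chosen with earlier results of these data known. Every member is accounted for, and of each other list up to 3 genes per direction with the largest called difference in tg/tg against WT are named. Alternatives were 2 normexp corrections (offset 50), other scalings, filters, floors, probe rules and variance models, the series table (its floor was chosen after seeing the data), fits of only the groups compared, a replicate block, and leaving out each array.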

Additional observations from a re-analysis of the deposited data

How the results depend on the processing

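Of the members called, 34 of 37 in tg/tg against WT, 17 of 28 in tg/wt against WT and 33 of 36 in tg/tg against tg/wt kept their call under all alternatives other than the plain normexp correction in which they were tested. The exceptions were Ccnd3, Ccne1 and Cdkn2c in the first comparison, Ccne1, Ccna2, E2f8, Cdkn1a, Bub1b, Cenpa, Cenpe, Kif20a, Kif23, Kif2c and Top2a in the second, and Ccnd3, Ccne1 and Gmnn in the third. Under the mean of a gene's probes Ccne1 in tg/wt against WT turned to -0.47. Leaving out 1 array at a time gave 1 to 3 members called lower in tg/tg against WT. In tg/wt against WT it gave 0 to 1 members called lower, 0 to 2 past 2-fold, and 746 to 1648 genes higher and 595 to 1824 lower overall. In tg/tg against tg/wt it gave 0 to 1 members past 2-fold lower. With every probe on its own, 5 member probes were called lower in tg/tg against WT and 5 in tg/tg against tg/wt. The 1 member past 2-fold in tg/wt against WT became 0 in limma under limited normexp, quantile normalization, no filter, the filter on all arrays, the floor and the replicate block, where at an unadjusted p under 0.05 it was 0 or 1. Without the filter 1208 genes were lower there. Quantile normalization moved the share of higher calls there to 54.5%, and leaving out WT 1 to 57.4%, against 47.9%. Limited normexp left 12 members past 2-fold in tg/tg against tg/wt.

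Same-numbered arrays showed little common deviation (correlations -0.048 for tg/tg with WT, 0.129 for tg/wt with WT and -0.046 for tg/tg with tg/wt). With 2 arrays for each genotype, these values cannot settle whether the numbers pair samples. With the replicate block 34 members were called higher and 3 lower in tg/tg against WT, 26 and 1 in tg/wt against WT, and 33 and 2 in tg/tg against tg/wt.

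The plain normexp correction met an outlying local background (21737.5 units at most on WT 1, where the median was 58) and lowered the correlation of WT 1 with WT 2 to 0.979, against 0.997. It moved the median of all genes in tg/tg against WT to -0.18. It gave 17 members higher, 0 lower and 12 past 2-fold in tg/tg against WT (1 lower at an unadjusted p), with 1770 genes higher and 2339 lower. In tg/wt against WT limma called 0 members higher, 0 lower and 0 past 2-fold (11, 3 and 0 at an unadjusted p), with 0 genes higher and 1 lower. In tg/tg against tg/wt it gave 14 members higher and 10 past 2-fold, with 1433 genes higher and 1864 lower. Under it these log2 differences turned negative in tg/tg against WT: E2f1 -0.0315, E2f8 -0.83, Bub1 -0.55, Cenpe -0.92, Kif23 -0.0722 and Kif2c -0.41. In tg/wt against WT they were Ccna2 -0.0025, Ccnb1 -0.75, Cdk1 -0.49, E2f8 -1.47, Rrm2 -0.48, Aurkb -0.91, Bub1b -0.62, Cenpa -0.66, Cenpe -1.50, Ube2c -0.0766, Kif20a -0.0874, Kif23 -0.45, Kif2c -1.38, Nusap1 -0.24, Racgap1 -0.48 and Top2a -0.91. None of these differences was called there. With outlying local backgrounds limited to the array's median, each of these genes was higher in the comparison where its difference had turned negative. In tg/wt, however, E2f8 (0.10), Cenpa (0.16), Cenpe (0.19), Kif2c (0.07) and Top2a (0.31) were not called under that limit. The cause of the other changes was not tested.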
